A study of Homo sapiens with 60 samples.

Results

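The comparison described here sets HT29 cells given the high dose of Citri Unshius Pericarpium against HT29 cells given the high dose of Cimicifugae Rhizoma, with 3 libraries of each, 6 of the 60 libraries of the series. The members were taken by their sample labels: the 3 libraries labelled high dose for each of these extracts. Sample names of both extracts begin with 12, and a shared leading code is called a library set here. Titles of all libraries used, vehicle included, also name BatchD. HT29 is an established human colorectal cancer line with epithelial character. Citri Unshius Pericarpium is dried mandarin peel, and Cimicifugae Rhizoma is the dried rhizome of Cimicifuga species, and both were prepared as 70% ethanol extracts. The labels name no engineered change, and cells were exposed for 24 h to 500 µg/mL of one extract. The medium and low doses of the same set, 100 and 20 µg/mL with 3 libraries each, and 3 vehicle libraries served as reference. The vehicle is 0.1% DMSO in the sample labels but 2% in the design text of the series. A single cell line was used, so the values describe these cells only. The labels do not say that the 3 libraries of a group came from separate cultures, so p-values measure the spread between these libraries, which may be technical.

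Cells meet plant compounds with several sensing systems that act through transcription. The aryl hydrocarbon receptor binds flat aromatic ligands, pairs with ARNT and switches on enzymes that oxidise them, such as CYP1A1 and CYP1B1; in the gut it is known as a sensor of dietary and microbial compounds. NRF2, encoded by NFE2L2, is kept low by KEAP1 until electrophiles or oxidants modify KEAP1, and then raises genes of glutathione and thioredoxin chemistry, NADPH supply and carbonyl reduction. ATF4 is translated when the kinases of the integrated stress response are active, and raises genes of amino acid uptake and synthesis.

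Total expected counts ran from 21.5 to 28.5 M in the Citri high-dose libraries and from 18.1 to 23.6 M in the Cimicifugae high-dose libraries, so that 3 counts, the floor of detection, stood for 0.105 to 0.14 and 0.127 to 0.166 CPM, the count scaled to library depth. Mitochondrial genes took 8.13 to 8.52% of counts in the former and 7.94 to 8.33% in the latter. All 10 epithelial markers were detected and their summed level was 10218 to 10793 CPM against 10137 to 10681 CPM. The 7 fibroblast markers summed to at most 2.27 CPM, the 5 endothelial markers to at most 3.19 CPM and the 5 neural markers to at most 1.32 CPM in any of the 6 libraries. The summed leukocyte markers, 1836 to 1864 against 1684 to 1722 CPM, were almost all LYZ, a lysozyme, and the summed hepatocyte markers, 342 to 353 against 316 to 344 CPM, almost all SERPINA1, with ALB at 0. In this line, neither LYZ (adjusted p = 0.19) nor SERPINA1 (0.72) passed the test between the extracts.

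At the high dose, targets of NRF2 and of the aryl hydrocarbon receptor and part of the ATF4-linked genes stood lower in Citri than in Cimicifugae cells, and no member of these lists stood higher beyond the threshold. HMOX1, which breaks down haem, was 2.99-fold higher in Cimicifugae cells, AKR1C2, a carbonyl reductase, 2.34-fold, and ALDH3A1, an aldehyde dehydrogenase, 2.08-fold. Among genes with a mean log2 CPM of at least 1, those higher in Citri cells differed less, with RASL11A, a small RAS-like GTPase, 1.6-fold, and CD200, a membrane glycoprotein, 1.57-fold. Of 15380 genes tested with edgeR's quasi-likelihood test, 215 (1.4%) passed an adjusted p of 0.05, 68 (0.442%) higher and 147 (0.956%) lower in Citri. A log2 change below 0 means a lower level in Citri throughout. In bulk RNA, fewer cells expressing a gene and less of its RNA per cell cannot be told apart. The median size of the called changes was 0.31 on the log2 scale, 16 of them reached 2-fold, and the median of all genes was 0.0045. For every called gene the 3 libraries of one extract lay apart from the 3 of the other, against 17.5% of all tested genes. The calls were made on these same libraries, so this separation is not separate evidence.

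The number of calls moved with single libraries. It was 128 without Citri replicate 2, 123 without Citri replicate 3, 140 without Cimicifugae replicate 1 and 142 without Cimicifugae replicate 2. Of the 215 genes, 96 passed whichever of the 6 libraries was left out, 76 of them lower and 20 higher in Citri. With all 60 libraries in the fit, 145 genes passed, 28 higher and 117 lower. With 59, leaving out replicate 3 of the medium dose of Zizyphi Fructus, a library of another set, 348 passed, 98 higher and 250 lower, so this 1 library moved the count of the wide fit. An earlier report on these data named this library as standing apart and widening the spread. Leaving it out was thus a choice made from the data.

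**Figure D1:**
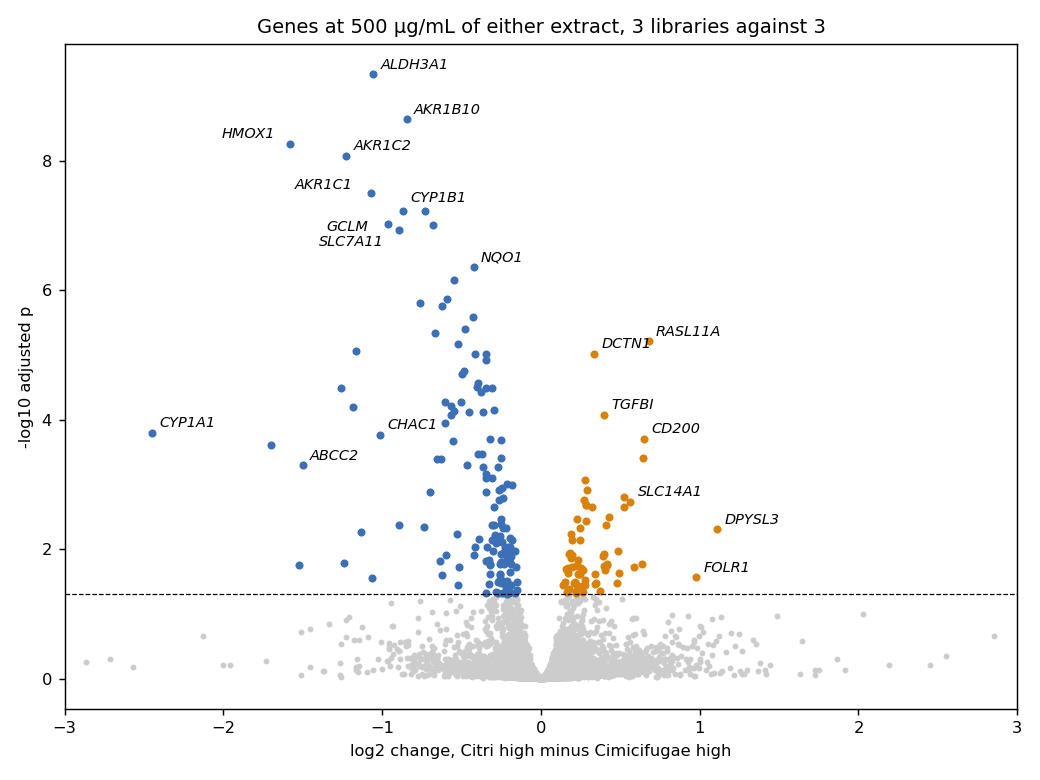
Change of each of 15380 genes between Citri and Cimicifugae cells at 500 µg/mL (x axis, log2 change; y axis, -log10 of the adjusted p), with blue points for the 147 genes lower in Citri, orange points for the 68 higher, grey points for the rest and a dashed line at an adjusted p of 0.05; 14 genes that did not pass lie outside the x axis, which ends at 3 in each direction. The lower genes reach larger changes and smaller p than the higher ones. HMOX1 is at -1.58 and ALDH3A1 at an adjusted p of 4.5e-10, whereas DPYSL3 and RASL11A, among the higher, have changes of 1.11 and 0.68.

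Short stretches of promoter show the kind of element by which each sensing system is known to be read, for 1 member of each list. They come from RefSeq windows on GRCh38.p14 that run from 250 bases before to 50 after a gene's start, and both strands were searched. Capitals mark the match: GCGTG, the core of the aryl hydrocarbon receptor element, in CYP1A1 at chr15:74725568-74725597; TGACNNNGC, the core of the antioxidant response element, in GCLM at chr1:93909445-93909474, where it lies on the other strand from the letters printed; and TGATGNAA, the element shared by C/EBP and ATF factors, in ASNS at chr7:97872458-97872487. Each is printed 5′ to 3′ along its gene's strand, which is the minus strand for all 3.
CYP1A1: ccagggaaggagGCGTGgccacacgtacaa
GCLM: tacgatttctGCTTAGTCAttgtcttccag
ASNS: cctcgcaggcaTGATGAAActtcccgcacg
The matches begin 57, 34 and 68 bases before the RefSeq start. The outermost start in GENCODE 29 lies 82, 26 and 134 bases upstream of that one, so the matches in CYP1A1 and ASNS, and 1 base of the match in GCLM, fall inside the GENCODE gene. Neither of the other 2 motifs was found within the bases printed. GCGTG was in the window of 7 of the 8 receptor targets that had one and of 40.6% of 27305 genes. It was also in 10 of 18 NRF2 targets and 12 of 19 ATF4-linked genes. TGACNNNGC was in 6 of 18 NRF2 targets, 6 of 19 ATF4-linked genes, 2 of 8 receptor targets and 16.1% of genes, so it was about as frequent in the ATF4-linked list as in the NRF2 list. TGATGNAA was in 4 of 19 ATF4-linked genes, 0 of the 18 and 0 of the 8, and in 4.46% of genes. These short motifs are frequent, and a match is a description of the letters, not a shown binding site.

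Of 12 targets of the aryl hydrocarbon receptor, 10 were tested, and 8 of these were lower in Citri cells, against 0.956% of all genes. The median log2 change of the 10 was -0.49, against 0.0045 over all genes. CYP1A1 (ENSG00000140465, chr15:74719542-74725610, minus strand, in GENCODE 29 on GRCh38), the receptor's best known target, stood at 0.516, 0.336 and 0.592 CPM in the 3 Citri libraries and at 2.96, 2.2 and 2.82 CPM in the Cimicifugae libraries. The groups lay far apart, but the Citri values were only a few times the floor. The log2 change was -2.45 ± 0.33 (SE), with an adjusted p of 0.00016 by edgeR's quasi-likelihood test. Vehicle cells had 0.464 CPM ± 0.052 (SD, n = 3), close to the Citri level. The vehicle libraries form a library set of their own, so set and treatment cannot be told apart there and their levels are given without a test.

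CYP1B1 (ENSG00000138061, chr2:38066973-38109902, minus strand), a related oxidase, was measured far above the floor. Citri libraries had 53.3, 51.3 and 50.9 CPM and Cimicifugae libraries 95.5, 94.8 and 93.5 CPM. The SD was 1.3 CPM in the former and 1 CPM in the latter, far below the gap between the groups. The log2 change was -0.87 ± 0.066 (SE, adjusted p = 5.9e-08, edgeR), and vehicle cells had 48.6 CPM ± 1.6 (SD, n = 3). ALDH3A1, which oxidises aldehydes, had 18.6, 18.7 and 18 CPM in Citri cells and 39.4, 38.4 and 37.4 CPM in Cimicifugae cells, a log2 change of -1.06 ± 0.055 (SE). It had the smallest adjusted p of all genes, 4.5e-10. Its vehicle level, 23.1 CPM ± 1.9 (SD, n = 3), lay above that of the Citri cells and below that of the Cimicifugae cells.

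ALDH1A3, which makes retinoic acid, changed by -0.76 on the log2 scale and UGT1A6, a glucuronosyltransferase, by -0.57. The UGT1A genes share most of their exons, so reads of the family can be split between them. TIPARP, a mono-ADP-ribosyltransferase that limits the receptor, was lower by -0.38, NQO1, a quinone reductase, by -0.42 and SLC7A5, a large neutral amino acid transporter, by -0.25. NQO1 is also on the NRF2 list and SLC7A5 on the ATF4-linked list. AHRR, the receptor's repressor, had 4.21 CPM ± 0.19 in Citri cells and 5 CPM ± 0.67 in Cimicifugae cells (SD, n = 3), and did not pass (log2 change -0.25, adjusted p = 0.43). NEDD9, a scaffold protein, lay the other way at 0.21 and did not pass (adjusted p = 0.17). All 8 called members kept their call without any 1 of the 6 libraries.

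All 26 NRF2 targets on the list were tested, and 20 of them were lower in Citri cells beyond the threshold, against 0.956% of all genes. Each of the 26 had a log2 change below 0, from -1.58 to -0.024 with a median of -0.45, whereas 7411 of all 15380 genes lay below 0. Signs were also near uniform in some lists with no call, at smaller medians. Below 0 lay 22 of 24 cholesterol genes (median -0.078), 22 of 24 interferon genes (-0.14) and 1 of 32 DNA replication genes (0.058). The 20 calls spread over the pathway's branches: glutathione, thioredoxin, NADPH, carbonyl reduction, haem and iron. All but SRXN1 kept their call without any 1 library.

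In glutathione synthesis, GCLM and GCLC encode the subunits of the rate-limiting ligase and SLC7A11 the importer of cystine. GCLM (ENSG00000023909, chr1:93885205-93909456, minus strand) had 69, 75.8 and 67.8 CPM in Citri cells and 144, 134 and 137 CPM in Cimicifugae cells. The Citri values were close to those of vehicle cells, 67.9 CPM ± 3.3 (SD, n = 3), and the Cimicifugae values stood apart from both. The log2 change was -0.96 ± 0.075 (SE, adjusted p = 9.4e-08, edgeR). SLC7A11 (ENSG00000151012, chr4:138164097-138242349, minus strand) had 149, 154 and 156 CPM against 281, 280 and 295 CPM, a log2 change of -0.9 ± 0.072 (SE, adjusted p = 1.2e-07, edgeR), with vehicle cells at 148 CPM ± 7.5 (SD, n = 3). GCLC changed less than GCLM, by -0.55 ± 0.049 (SE). GSR, which regenerates glutathione, stood at 65.1 CPM ± 2.8 in Citri cells and 74.4 CPM ± 2 in Cimicifugae cells (SD, n = 3), and did not pass (adjusted p = 0.094).

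The thioredoxin branch differed by smaller amounts. TXNRD1, thioredoxin reductase, had 370, 366 and 348 CPM in Citri cells and 480, 498 and 468 CPM in Cimicifugae cells, with a log2 change of -0.41 ± 0.045 (SE, adjusted p = 9.6e-06, edgeR). SRXN1, which repairs peroxiredoxins, changed by -0.26 (adjusted p = 0.0063). Its call was lost without Citri replicate 3 (adjusted p = 0.052) and with all 60 libraries in the fit (0.075), but not with 59 (1.4e-05). PRDX1, a peroxiredoxin, had 522 CPM ± 13 and 542 CPM ± 6.3 (SD, n = 3), a change of -0.052 ± 0.042 (SE) that did not pass.

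Of the genes that supply NADPH, TKT, a transketolase, was at -0.35 ± 0.039 (SE), and ME1, the cytosolic malic enzyme, at -0.48 ± 0.055, and both passed. PGD (-0.13, adjusted p = 0.14) and TALDO1 (-0.024, adjusted p = 0.93), of the pentose phosphate pathway, did not.

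The carbonyl reductases were among the genes with the largest differences. AKR1C2 (ENSG00000151632, chr10:4987400-5018031, minus strand) had 8.82, 8.85 and 8.05 CPM in Citri cells and 20.6, 20.3 and 19.4 CPM in Cimicifugae cells, a log2 change of -1.23 ± 0.081 (SE, adjusted p = 8.3e-09, edgeR). Vehicle cells had 11.4 CPM ± 0.22 (SD, n = 3), above each Citri library. AKR1C1, nearly identical in sequence, changed by -1.07, and reads may be divided between them. AKR1B10 had 103, 101 and 102 CPM against 189, 187 and 174 CPM, a change of -0.84 ± 0.05 (SE, adjusted p = 2.2e-09, edgeR), and AKR1C3 changed by -0.57.

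HMOX1 (ENSG00000100292, chr22:35380361-35394214, plus strand) had 10, 8.52 and 9.17 CPM in Citri cells and 31.6, 25.8 and 25.3 CPM in Cimicifugae cells. Citri cells were close to the vehicle level of 8.72 CPM ± 0.5 (SD, n = 3). The log2 change was -1.58 ± 0.1 (SE, adjusted p = 5.4e-09, edgeR). FTL, the light chain of ferritin, which stores iron, changed by -0.35 (adjusted p = 0.0013), a call lost with all 60 libraries in the fit (0.16) but not with 59 (0.00024). FTH1, the heavy chain, ranged from 2539 to 3765 CPM and from 3483 to 5347 CPM in overlapping groups, and did not pass (adjusted p = 0.5).

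**Figure D2:**
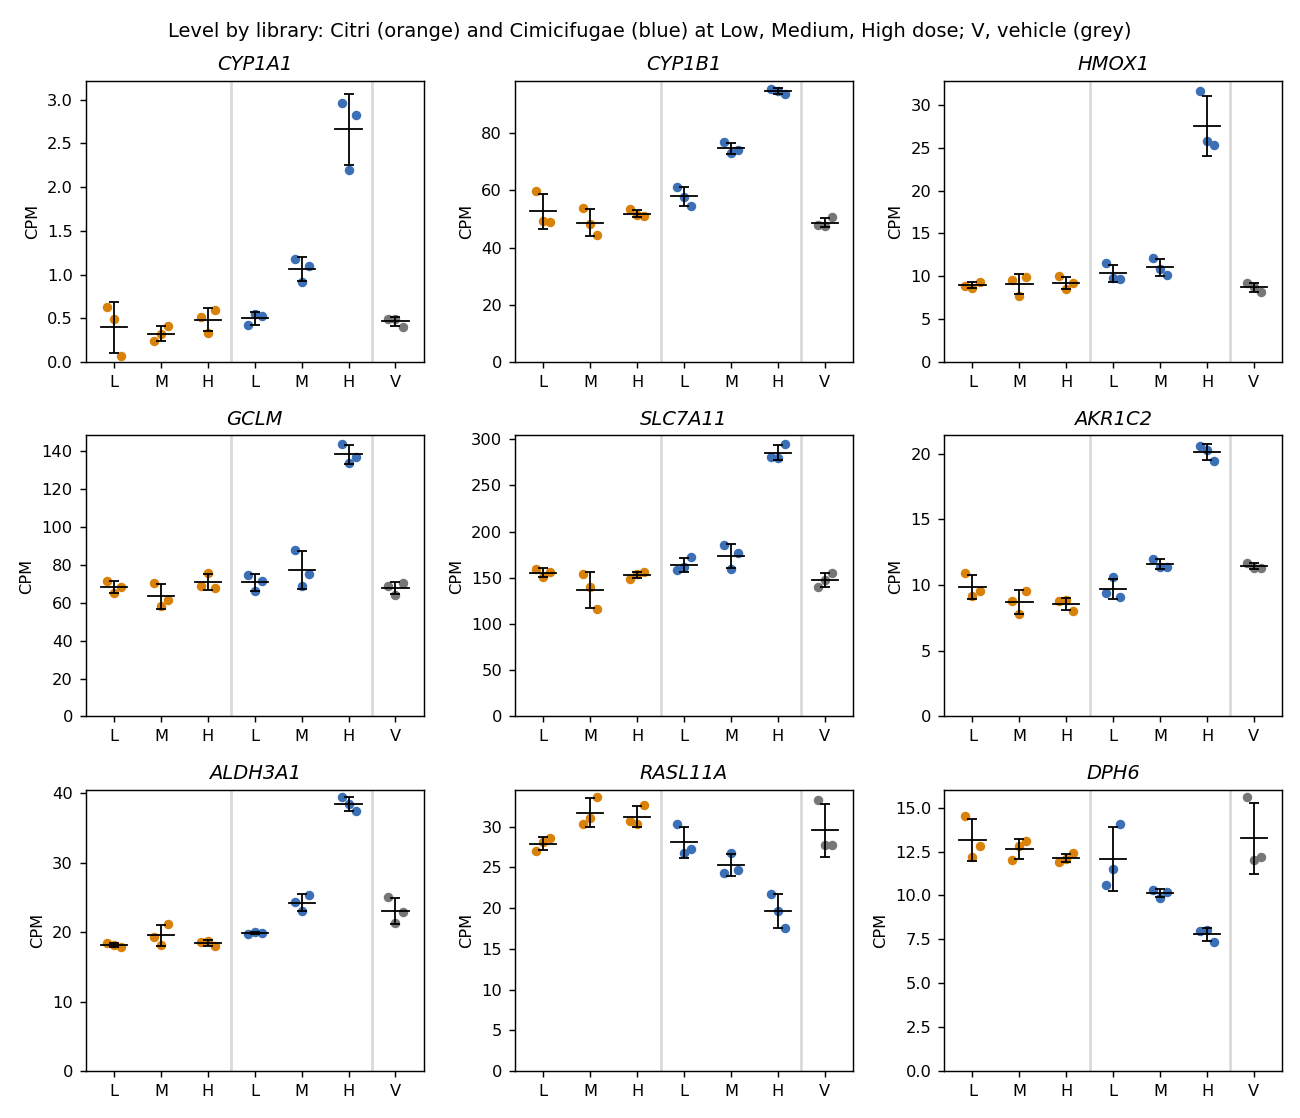
Level of 9 genes (y axis, CPM) in each library of Citri (orange) and Cimicifugae (blue) cells at the low (L), medium (M) and high (H) dose and of vehicle cells (V, grey); black lines are means with SD over 3 libraries. In the 7 genes CYP1A1 to ALDH3A1 the Cimicifugae high-dose libraries stand above all others of the set, as HMOX1 shows at 25.3 to 31.6 CPM, and in RASL11A and DPH6 they stand below.

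Other members of the list were ABCC2, a pump for conjugated compounds, at 0.798, 0.747 and 0.941 CPM in Citri cells and 2.29, 2.49 and 2.31 CPM in Cimicifugae cells. Its log2 change was -1.5 ± 0.23 (SE, adjusted p = 0.00051, edgeR) at a level not far above the floor. OSGIN1, a growth inhibitor, was at -0.63, SQSTM1, the autophagy receptor p62, at -0.59, PIR, a nuclear cupin protein, at -0.47 and EPHX1, an epoxide hydrolase, at -0.31. ABCC3, a second conjugate pump, did not pass (-0.17, adjusted p = 0.11).

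The ATF4-linked list held 25 genes, of which 23 were tested and 9 were lower in Citri cells, against 0.956% of all genes. The median was -0.24, with 22 of 23 below 0. Among the 9 were SLC7A11, counted above as an NRF2 target, and SLC7A5, counted above as a receptor target. CHAC1, which degrades glutathione, had 2.25, 3.06 and 2.47 CPM in Citri cells and 5.64, 5.43 and 4.84 CPM in Cimicifugae cells, a log2 change of -1.02 ± 0.14 (SE, adjusted p = 0.00017, edgeR). GDF15, a stress cytokine, had 33.7, 30.2 and 34.6 CPM against 56.6, 54.2 and 52.9 CPM (-0.73 ± 0.055, SE). TRIB3, a pseudokinase, had 37.9, 33.6 and 34.5 CPM against 60.9, 53.4 and 55.4 CPM (-0.68 ± 0.054, SE). For GDF15 and TRIB3 the vehicle level, 41.1 CPM ± 3.9 and 43.7 CPM ± 0.64 (SD, n = 3), lay between the 2 extracts.

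ASNS, asparagine synthetase, had 62.8, 60.7 and 61.3 CPM in Citri cells, 88.1, 89 and 80.5 CPM in Cimicifugae cells and 60.4 CPM ± 2.6 (SD, n = 3) in vehicle cells. DDIT4, an inhibitor of mTORC1, changed by -0.6 and SLC3A2, the partner chain of SLC7A5 and SLC7A11, by -0.3, a call lost with all 60 libraries in the fit (adjusted p = 0.79) but not with 59 (6.4e-06). PSAT1, of serine synthesis, changed by -0.22 (adjusted p = 0.01). Its call was lost without Citri replicate 2, Citri replicate 3 or Cimicifugae replicate 2 (adjusted p up to 0.076) and with all 60 libraries in the fit (0.075), but not with 59 (7e-05). The other genes of serine and one-carbon metabolism did not pass: PHGDH was at -0.0026, PSPH at -0.03, SHMT2 at -0.015 and MTHFD2 at -0.14. DDIT3, known as CHOP, was at -0.33 (adjusted p = 0.27), and ATF4 itself at -0.15 (adjusted p = 0.17).

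The mRNAs of the upstream regulators, chosen after their values were seen, showed smaller differences. AHR had 134 CPM ± 4.7 in Citri cells and 135 CPM ± 2.8 in Cimicifugae cells (SD, n = 3), a log2 change of -0.0079 ± 0.069 (SE), and ARNT one of 0.041 ± 0.056. NFE2L2 was at -0.076 ± 0.05, KEAP1 at -0.075 ± 0.054 and BACH1, a repressor at antioxidant elements, at -0.11 ± 0.046, and none of these 5 passed. EIF2AK3 and EIF2AK4, kinases upstream of ATF4, were at -0.058 ± 0.056 and 0.0065 ± 0.052. MAFG, a small MAF partner of NRF2, passed, with 83.2 CPM ± 1.8 against 103 CPM ± 3.4 (SD, n = 3) and a change of -0.31 ± 0.038 (SE, adjusted p = 3.3e-05, edgeR).

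**Figure D3:**
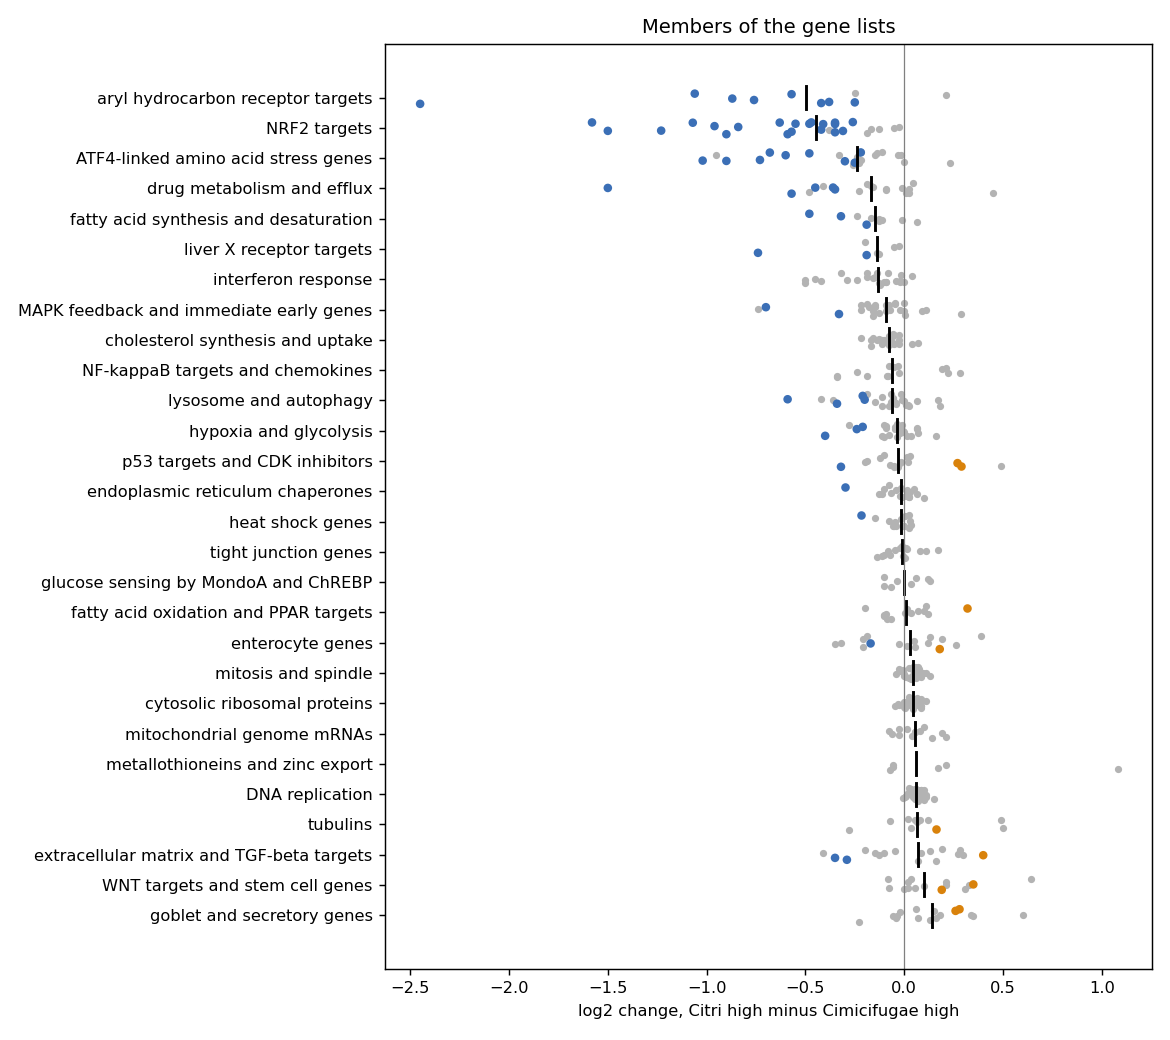
Members of the 28 gene lists by their log2 change between Citri and Cimicifugae cells at high dose (x axis), 1 row of points per list, with blue and orange points for genes called lower and higher in Citri, grey points for the rest and a black bar at the list median. The receptor targets (-0.49), the NRF2 targets (-0.45) and the ATF4-linked genes (-0.24) have the lowest medians, and the goblet and secretory genes (0.14) the highest.

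In drug metabolism and efflux, 5 of 19 tested members were lower in Citri cells, against 0.956% of all genes, and none higher. The median was -0.17. Apart from ABCC2 and UGT1A6 these were UGT1A1 (-0.45), UGT1A10 (-0.35) and ABCG2, an efflux pump. The UGT1A genes share exons and can split the same reads, so their calls may not be separate. ABCG2 had 83, 90.2 and 84.6 CPM in Citri cells and 108, 109 and 114 CPM in Cimicifugae cells, a log2 change of -0.36 ± 0.047 (SE, adjusted p = 7.7e-05, edgeR).

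In lipid metabolism, 3 of 10 genes of fatty acid synthesis and 2 of 7 liver X receptor targets were lower in Citri cells, against 0.956% of all genes. They were SCD, ABCG1, ME1, which is also an NRF2 target, and SREBF1 (-0.19), which is on both lipid lists. The call of SREBF1 was lost without Citri replicates 2 or 3 or Cimicifugae replicate 1. SCD, which desaturates fatty acids, had 1728, 1712 and 1765 CPM against 2189, 2157 and 2169 CPM (-0.32 ± 0.045, SE, adjusted p = 0.0002, edgeR). ABCG1, a sterol exporter, had 4.08 CPM ± 0.2 against 6.83 CPM ± 0.28 (SD, n = 3; -0.74). Of 24 genes of cholesterol synthesis and uptake none passed, with a median of -0.078.

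Among hypoxia and glycolysis genes 3 of 25 were lower in Citri cells, against 0.956% of all genes. They were ALDOC, an aldolase, at -0.4, VEGFA, the endothelial growth factor, at -0.24, and SLC2A1, the glucose transporter GLUT1, at -0.21. The call of SLC2A1 was lost with all 60 libraries in the fit (adjusted p = 0.66) but not with 59 (7.2e-07). DUSP5, a phosphatase of ERK, was lower at -0.7, as was THBS1, thrombospondin, at -0.35. CYP24A1, which degrades vitamin D, was at -0.89. IGFL2-AS1, a long noncoding RNA, had 4.13, 4.15 and 4.43 CPM against 9.77, 10.2 and 8.67 CPM (-1.17 ± 0.13, SE, adjusted p = 8.5e-06, edgeR). The sources do not state whether counting used strand, so its reads and those of genes it overlaps cannot be told apart.

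The genes with the largest changes among those higher in Citri cells were mostly in none of the lists. RASL11A (ENSG00000122035, chr13:27270327-27273690, plus strand) had 30.7, 30.3 and 32.7 CPM in Citri cells and 21.7, 19.7 and 17.5 CPM in Cimicifugae cells, a log2 change of 0.68 ± 0.071 (SE, adjusted p = 6e-06, edgeR). Vehicle cells, at 29.6 CPM ± 3.2 (SD, n = 3), were near the Citri level. CD200, an inhibitory ligand for myeloid cells, had 10.8, 11.7 and 9.97 CPM against 7.54, 6.89 and 6.4 CPM (0.65 ± 0.09, SE), and DPH6, an enzyme of diphthamide synthesis, had 11.9, 12.1 and 12.4 CPM against 7.99, 8.02 and 7.36 CPM (0.64 ± 0.094, SE).

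SLC14A1, a urea transporter, was at 0.56. SOSTDC1, an antagonist of BMP and Wnt signalling, and WNT11, a Wnt ligand, were both at 0.52. RNF144B, a ubiquitin ligase, was at 0.43, TGFBI, a matrix protein induced by TGF-beta, at 0.4 and DCTN1, a dynactin subunit, at 0.33. NOX1, the NADPH oxidase of colonic epithelium, had 16.8, 19.1 and 18.5 CPM in Citri cells and 13.3, 13 and 14.6 CPM in Cimicifugae cells (0.41 ± 0.076, SE, adjusted p = 0.0042, edgeR). DPYSL3 and FOLR1, below the level set for naming the largest changes and chosen after their values were seen, had larger changes, 1.11 ± 0.21 and 0.98 ± 0.22 (SE), at 2.14 CPM against 1.01 CPM and 1.52 CPM against 0.758 CPM. The call of DPYSL3 was lost without Citri replicate 3 (adjusted p = 0.054), and that of FOLR1 without any 1 library except Citri replicate 2 (up to 0.17), with DESeq2 (0.072) and with all 60 libraries in the fit (0.066). TXNIP, an inhibitor of thioredoxin, had 62.1 CPM ± 0.7 against 57.1 CPM ± 2.5 (SD, n = 3) and did not pass (adjusted p = 0.32).

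Of 17 p53 targets and CDK inhibitors, SESN1, a sestrin, was higher in Citri cells at 0.29, and BTG2, an antiproliferative factor, at 0.27, the latter not with all 60 libraries in the fit (adjusted p = 0.42) or with 59 (0.17). CDKN1A, the inhibitor p21, was lower at -0.32 (adjusted p = 0.015). Of 16 goblet and secretory genes, 2 passed: AGR2, a disulfide isomerase of mucus cells, had 213, 212 and 213 CPM against 181, 173 and 172 CPM (0.28 ± 0.051, SE, adjusted p = 0.0037, edgeR), and REG4 was at 0.26. Of 15 WNT and stem cell genes PROM1 (0.19) and EPHB3 (0.35) passed. VIL1 (0.18) and KRT20 (-0.17), both enterocyte genes, passed in opposite directions. Beside these counts, 1.4% of all tested genes passed, 0.442% higher and 0.956% lower in Citri. Of the genes named by rule, 20 lost their call without at least 1 library, and the highest adjusted p of each then lay between 0.052 and 0.23. Of these, REG4 lost it without any 1 of the 6 libraries (adjusted p 0.062 to 0.18) and with DESeq2 (0.059). CDKN1A and EPHB3 lost it without any but Citri replicate 1, KRT20 without Citri replicates 2 or 3 or Cimicifugae replicate 3, PROM1 without Citri replicate 3, and VIL1 without Citri replicate 1 or Cimicifugae replicate 2. The others were SLC7A11-AS1, LAMA3, HERPUD1, TFE3, CTSD, GABARAPL1, SREBF1, EREG, TUBA1B, ZNF821, DSEL, FILIP1L, PLBD1 and HOXC4. Each of these 14 but HOXC4 lost it without Citri replicate 2. HOXC4 lost it without Citri replicate 1 or Cimicifugae replicates 2 or 3. EREG and TUBA1B lost it in all 6 such fits, and DSEL, FILIP1L, GABARAPL1 and PLBD1 in 5. For CTSD, SREBF1 and ZNF821 it was lost in 3, and for HERPUD1 and TFE3 in 2. CTSD, EPHB3, FILIP1L, GABARAPL1, HOXC4, PROM1, REG4, SREBF1 and TUBA1B also lost it with all 60 libraries in the fit but not with 59, and ZNF821 with both. GABARAPL1 and ZNF821 lost it with DESeq2 too.

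No gene passed in 10 of the 28 lists. They cover DNA replication (32 genes tested, median 0.058), mitosis and spindle (28, 0.044), cytosolic ribosomal proteins (30, 0.047), mitochondrial mRNAs (13, 0.055), tight junctions (15, -0.013), NF-kappaB targets (14, -0.064), interferon response (24, -0.14), cholesterol, glucose sensing (8, -0.0024) and metallothioneins (6, 0.058). As 1.4% of all tested genes passed, a list of such a size without a call does not stand out. Of 19 endoplasmic reticulum chaperones and related genes 1 passed (HERPUD1, -0.3), and of 15 heat shock genes 1 (HSPA1B, -0.22). Both were lower in Citri, as were 0.956% of all genes. HSPA5, the chaperone BiP, stood at 479 CPM ± 3.2 and 485 CPM ± 15 (SD, n = 3). HSPA1B and HSPA1A are nearly identical in sequence, and HSPA1B did not pass with all 60 libraries in the fit (adjusted p = 0.78), though it did with 59 (0.00058).

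At the medium dose, 6 of 15380 genes passed between the extracts (0.039%), 5 lower (0.0325%) and 1 higher (0.0065%) in Citri. CYP1B1 had 53.7, 48.1 and 44.3 CPM in Citri cells and 76.8, 72.9 and 74.2 CPM in Cimicifugae cells, a log2 change of -0.62 ± 0.066 (SE, adjusted p = 0.00016, edgeR). The other lower genes were ALDH1A3 (-0.48), ADGRF1, an adhesion receptor (-0.36), ALDH3A1 (-0.31) and AKR1B10 (-0.3). Of the 10 receptor targets 3 were therefore called at this dose, and of the 26 NRF2 targets 1. The higher gene, MATR3 (ENSG00000280987), is 1 of several IDs that can share the reads of this nuclear matrix protein. HMOX1 had 9.07 CPM ± 1.2 against 11 CPM ± 1 (SD, n = 3) and GCLM 63.4 CPM ± 6.5 against 77.3 CPM ± 9.9, and neither passed (adjusted p = 0.78 and 0.54).

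At the low dose no gene passed (0%), with edgeR or with DESeq2, and 360 genes (2.34%) had an unadjusted p below 0.05 in edgeR. The median of the receptor targets went from -0.057 at 20 µg/mL to -0.21 at 100 and -0.49 at 500 µg/mL, and that of the NRF2 targets from -0.02 to -0.12 and -0.45. The ATF4-linked median was -0.014, -0.054 and -0.24. The medium- and low-dose levels did not enter the high-dose differences, but those libraries shared the fit's estimate of the spread, its scaling and its filter. The 6 high-dose libraries alone called 247 genes, 190 of the 215 among them. Of the 147 lower genes, 133 (90.5%) had a change below 0 at the medium dose, where 50.6% of all genes did, and 112 (76.2%) at the low dose, where 49.5% did. Of the 68 higher genes, 62 (91.2%) and 47 (69.1%) had a change above 0, against 49.4% and 50.4% of all genes.

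**Figure D4:**
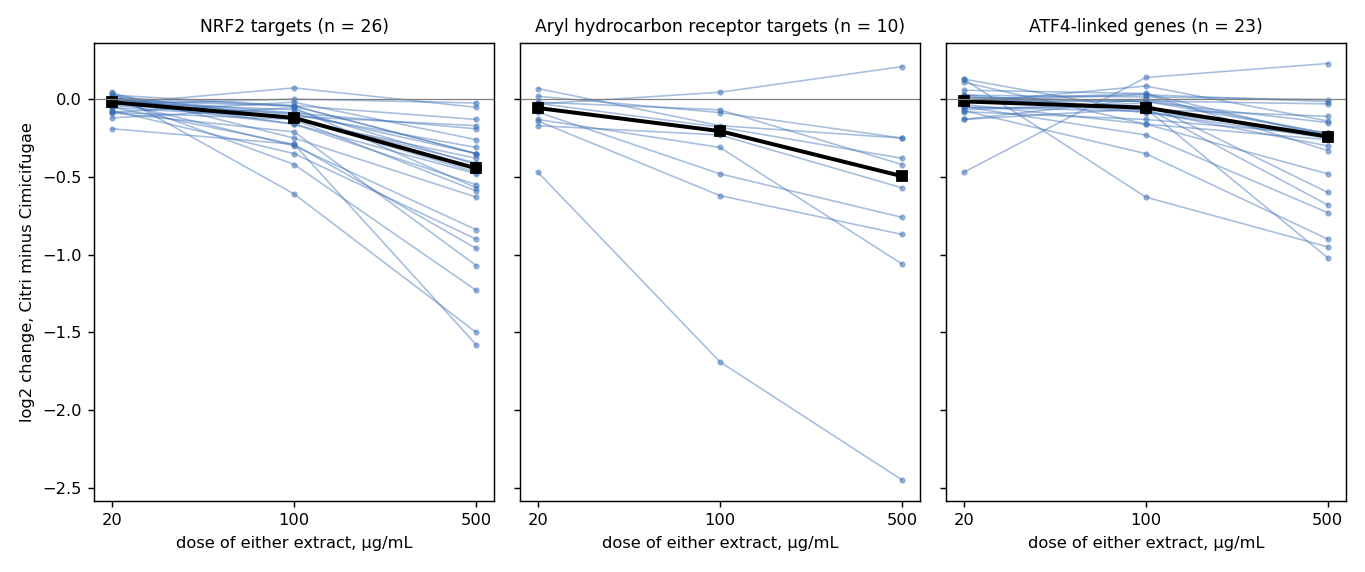
Difference between Citri and Cimicifugae cells (y axis, log2 change) at 20, 100 and 500 µg/mL of either extract (x axis, evenly spaced doses) for each tested NRF2 target, receptor target and ATF4-linked gene (thin lines), with the list median as a black line. The medians move from near 0 at 20 µg/mL to -0.45, -0.49 and -0.24 at 500 µg/mL, and the lowest line among the receptor targets is CYP1A1.

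The change from low to high dose within each extract shares the high-dose libraries with the comparison above, so the values are set side by side and not counted as separate evidence. In Cimicifugae cells 226 genes (1.47%) passed from low to high dose, 111 (0.722%) rising and 115 (0.748%) falling, and in Citri cells 66 (0.429%), 10 (0.065%) rising and 56 (0.364%) falling. Without Cimicifugae replicates 1 or 3 the former count was 141 or 142, and without Citri replicates 1, 2 or 3 the latter was 38, 16 or 37. In Cimicifugae cells 20 of 26 NRF2 targets rose (median 0.4), as did 8 of 10 receptor targets (median 0.44) and 8 of 23 ATF4-linked genes (median 0.28). In Citri cells no gene of the first pair of lists passed, with medians of -0.0081 and 0.0015, and 1 ATF4-linked gene fell.

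HMOX1 rose by 1.42 ± 0.1 (log2, SE) in Cimicifugae cells and had a change of 0.03 ± 0.11 in Citri cells. GCLM rose by 0.97 ± 0.076 and had 0.053 ± 0.077, and CYP1B1 rose by 0.71 ± 0.065 and had -0.023 ± 0.067. Several genes higher in Citri at the high dose fell in Cimicifugae cells: DPH6 by 0.64, RNF144B by 0.62, CD200 by 0.58 and RASL11A by 0.52, with changes of -0.12, -0.15, 0.047 and 0.16 in Citri cells that did not pass. NOX1 fell by 0.73 in Cimicifugae cells (adjusted p = 5.2e-06, edgeR) and had -0.31 in Citri cells (adjusted p = 0.06).

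A smaller group changed within Citri cells. IGFL2-AS1 fell by 1.01 ± 0.12 (log2, SE, adjusted p = 0.00051, edgeR), from 8.42 CPM ± 1.6 to 4.23 CPM ± 0.17 (SD, n = 3), and had a change of 0.15 in Cimicifugae cells. UCA1, a long noncoding RNA, fell by 0.54, TRIM31, a ubiquitin ligase of the gut, by 0.44, and PTPRH, a receptor phosphatase, by 0.39, with changes of 0.015, 0.0015 and -0.034 in Cimicifugae cells. UCA1 passed between the extracts at high dose, also with 59 libraries in the fit (adjusted p = 1.9e-06) but not with all 60 (0.36). GDF15 fell by 0.34 in Citri cells (adjusted p = 0.0055; lost without Citri replicate 2, adjusted p = 0.059) and rose by 0.34 in Cimicifugae cells (adjusted p = 0.001). HSPA5 rose in both, by 0.24 in Citri and 0.25 in Cimicifugae cells.

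**Figure D5:**
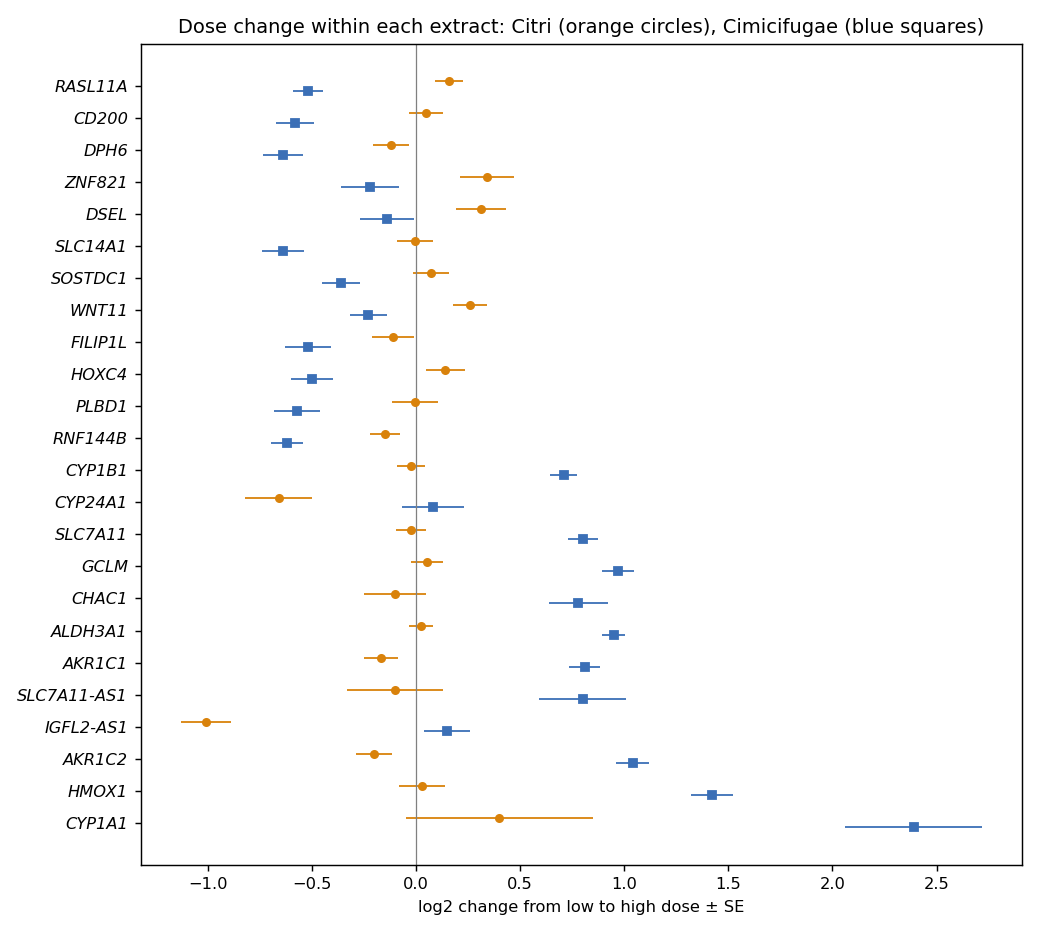
Change from low to high dose (x axis, log2 ± SE) within Citri (orange circles) and Cimicifugae cells (blue squares) for CYP1A1 and the named genes with the largest differences in each direction, ordered by their difference at high dose. For HMOX1 the Cimicifugae value is 1.42 and the Citri value 0.03, whereas for IGFL2-AS1 the Citri value is -1.01 and the Cimicifugae value 0.15.

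The difference between these dose changes was tested as an interaction, and 54 genes passed (0.351%), 7 (0.0455%) with a Citri change above the Cimicifugae change and 47 (0.306%) with a Citri change below it. They took in 17 of 26 NRF2 targets, 6 of 10 receptor targets and 6 of 23 ATF4-linked genes. For AKR1C2 the difference was -1.24 (adjusted p = 7.2e-06, edgeR), for HMOX1 -1.39 (4.3e-05), for ALDH3A1 -0.93 (2.1e-06) and for GDF15 -0.68 (7e-05). CYP1A1, at a level near the floor at the low dose, did not pass (-1.99, adjusted p = 0.29).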

How the data were processed

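The deposited values are expected counts per gene that the authors obtained with RSEM 1.3.3 after STAR 2.7.3a, Trim Galore 0.6.5 and FastQC 0.11.9 on GRCh38, per the submitters' processing notes; no source used here names the gene annotation. Of 270 columns, 60 were used and 210 belong to samples not analysed here. Counts were rounded; 91.1% of the values in the 18 libraries of the set were already whole. Genes reaching 0.5 CPM in 3 or more of these libraries were tested with edgeR 4.0.16 (R 4.3.3): TMM scaling, quasi-likelihood fit of 6 groups to 18 libraries, 12 residual degrees of freedom, common dispersion 0.00233, Benjamini-Hochberg adjustment over all tested genes, threshold 0.05. The SE is the size of the log2 change over the square root of F. CPM levels were scaled by TMM over these and the 3 vehicle libraries. The depth was 18.1 to 36.7 M counts in the 60 libraries; floors cover counting error only. Same-numbered high-dose libraries deviated together weakly (correlations 0.108 to 0.215 in 3 pairs). By the rule used, a correlation above 0.1 in each pair, the numbers pair these samples. Across all groups of the set, 30 of 45 same-numbered pairs lay above 0.1, and the range was -0.215 to 0.324. The labels name BatchD for all libraries but no batch or culture that goes with the replicate number. Replicate pairs differed beyond sampling noise, and the method was tested on simulated data. Of the gene IDs, 93.2% had a symbol, and GENCODE 29 gave coordinates for 94%.

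The 12 largest changes in each direction were named among genes with a symbol, a mean log2 CPM of at least 1, an adjusted p past the threshold and no overlap between the groups. Up to 4 called members per list were named at any level. For the interaction, 4 in each direction were named among called genes with a symbol and that mean level. CYP1A1, CYP1B1, HMOX1, NOX1 and TXNIP were named whatever they did. Other genes were chosen after their values were seen. A few genes are left out of the text and not reported here. The members and lists were chosen with earlier results of these data known. Alternatives were DESeq2 1.42.0, its size factors, other filters, all 60 libraries, 59 without 1 library of another set, the 6 libraries alone, a replicate block and leaving out each high-dose library.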

Additional observations from a re-analysis of the deposited data

Results flagged for a closer look

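The change from low to high dose differed between the extracts for 54 genes by edgeR's interaction test. The named genes with a Citri change above the Cimicifugae change were RASL11A (log2 difference 0.68), HOXC4 (0.64), CD200 (0.63) and SLC14A1 (0.63). Those with a Citri change below the Cimicifugae change were HMOX1 (-1.39), AKR1C2 (-1.24) and IGFL2-AS1 (-1.16). HMOX1 and AKR1C2 rose by 1.42 and 1.04 in Cimicifugae cells, and IGFL2-AS1 fell by 1.01 in Citri cells. HMOX1, AKR1C2 and IGFL2-AS1 passed without any 1 high-dose library, with DESeq2 and with 60 or 59 libraries in the fit. RASL11A passed without any 1 high-dose library but not with 60 libraries (adjusted p = 0.23; 5.4e-05 with 59). The other calls were lost more often: SLC14A1 was lost in all 6 such fits (adjusted p up to 0.13), HOXC4 in 5 (up to 0.17, all but that without Citri replicate 3) and CD200 in 4 (up to 0.1, without Citri replicates 1 or 2 or Cimicifugae replicates 2 or 3). CD200 was also lost with 60 libraries (0.091; 0.0021 with 59), and HOXC4 with 60 (0.74), with 59 (0.071) and with DESeq2 (0.094).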

How the results depend on the processing

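Each alternative changed 1 choice, except that the fit of 59 libraries both added the other sets and left out 1 of their libraries, Zizyphi Fructus medium replicate 3. No named gene changed direction in any. Between the extracts at high dose, 215 genes passed as reported, 361 without a filter on low counts, 348 with 59 libraries in the fit and 123 to 167 with 1 high-dose library left out. At medium dose 6 became 10 with DESeq2, 175 without the filter and 2 with 60 libraries; at low dose 0 became 59 without the filter. The interaction's 54 became 166 without the filter, 32 with 60 libraries, 87 with 59 and 36 to 42 with 1 left out. From low to high dose of Citri, 66 became 123 with DESeq2, 257 without the filter, 23 with 60 libraries, 227 with 59 and 16 to 67 with 1 left out. For Cimicifugae, 226 became 352, 140 with 60 libraries, 372 with 59 and 141 to 216 with 1 left out. The cause was not tested, beyond the fewer samples in the last kind. With the replicate block, 265 genes passed at high dose, all 215 among them, 5 at medium, 0 at low dose, 65 in the interaction and 288 for Cimicifugae, whereas for Citri low to high dose 126 did, 28 rising and 98 falling; the block ended no named call. In the low-to-high pairs the numbers did not pair by the rule used, a correlation above 0.1 in each pair (lowest 0.0232 and 0.0157, and -0.0633 at medium dose). At low dose they did, with correlations of 0.112 to 0.302, and 16 of 18 libraries correlated best with their own number. The p-values given elsewhere come from the fit without the block unless stated. Of 62 named calls at high dose, 3 were lost with DESeq2, 13 with 60 libraries, 2 with 59 and 7 to 17 with 1 library left out. The NRF2 count stayed at 19 to 23, the receptor count at 7 to 8 and the ATF4-linked count at 8 to 11 over all alternatives. Depth limits CYP1A1 and ABCC2, whose levels in Citri cells were near the floor.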

Other observations

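The selenoprotein genes, a group chosen after the values were seen, did not move one way. Of 19 tested, 4 were higher and 2 lower in Citri cells, against 0.442% and 0.956% of all genes. The median log2 change was 0.053. As the group was picked on these values, its share of calls is not a test. SELENOW, a small redox protein, had 118 CPM ± 2.1 in Citri cells and 97.7 CPM ± 2 in Cimicifugae cells (SD, n = 3; log2 change 0.28, adjusted p = 0.00086, edgeR), a call lost with all 60 libraries in the fit (adjusted p = 0.32) but not with 59 (0.00072). SELENOH (0.39), SELENON (0.34) and SELENOF (0.21) were also higher. Each lost its call without Citri replicate 3 and without other libraries (adjusted p up to 0.084, 0.33 and 0.22), SELENON also with DESeq2 (0.22) and with 60 or 59 libraries in the fit (0.29 and 0.092), and SELENOH with 60 (0.71) but not with 59 (0.019). TXNRD1 (-0.41) and GPX2 (-0.24), a glutathione peroxidase of the gut, were lower, and the call of GPX2 was lost without Citri replicate 2 (adjusted p = 0.05) and with 60 libraries (0.11), but not with 59 (0.00023). GPX4, which reduces lipid peroxides, was at -0.076 (adjusted p = 0.74).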
